A study of Mus musculus with 9 samples.

Results

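Of the mouse selenoprotein genes that carry the Seleno prefix, 10 were followed: Selenof, Selenoh, Selenoi, Selenok, Selenom, Selenon, Selenoo, Selenos, Selenot and Selenow. Selenop and Selenov carry the prefix too but are not among the 10, and they are described with the other selenoprotein genes. The 10 were chosen by gene name, from the selenoproteins outside the peroxidases and reductases, and are 10 of the 30411 genes with a level in the deposited table. All 10 also passed the filter on low counts, which left 18092 genes for testing. Messenger RNA was measured in HEI-OC1, an immortalised mouse cell line derived from the organ of Corti, where the inner ear detects sound. The 9 libraries form 3 groups of 3: untreated cells (CTRL, here control), cells exposed to hydrogen peroxide (H2O2), and cells incubated with the selenium-bearing nanoreactor HCS@Se before hydrogen peroxide (SCGS, here pretreated H2O2). The names HCS@Se and SCGS were taken to mean the same agent, neither dose nor exposure time is stated, and no group received the nanoreactor without hydrogen peroxide. All libraries come from 1 line, and of 16 hair cell markers 1 reached 1 FPKM in every control library, while the defining markers Atoh1, Slc26a5 and Tmc1 were listed at 0 in all 3 groups. Of 10 fibroblast and mesenchyme markers 7 reached 1 FPKM in every control library, the list summed to between 964 and 972 FPKM there, and Dcn and Lum were at 0 in control.

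Selenoproteins contain selenocysteine, an amino acid built from selenium that sits where most related proteins have cysteine. Its codon is UGA, normally a stop signal, which the ribosome reads as selenocysteine when the messenger RNA carries a selenocysteine insertion element behind its coding sequence and the binding protein, elongation factor and selenocysteine transfer RNA are present. When selenium is scarce, a UGA codon that is not read through can mark the messenger RNA for nonsense-mediated decay, and in selenium-deficient rodents some selenoprotein messenger RNAs, among them those of Selenow and Selenoh, are known to decline more than others. Several of the genes described here encode proteins of the endoplasmic reticulum (ER), the compartment where secreted and membrane proteins fold.

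The UGA codon is the feature that all 10 genes have in common, and its surroundings are shown for that reason, taken from the selenocysteine-coding transcripts of the GENCODE M21 annotation on GRCm38. Each line runs 5′ to 3′ along the coding strand, with up to 15 bases on either side of the codon inside the coding sequence. Capitals mark the TGA, which is UGA in the RNA.
Selenow: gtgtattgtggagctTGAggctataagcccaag
Selenoh: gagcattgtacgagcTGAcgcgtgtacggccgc
Selenot: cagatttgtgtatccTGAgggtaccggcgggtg
Selenom: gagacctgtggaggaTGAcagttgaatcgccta
Selenof: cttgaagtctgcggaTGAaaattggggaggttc
Selenon: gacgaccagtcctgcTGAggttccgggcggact
Selenoo: gaactctgtgtaacaTGAtcctcataa
Selenok: ccaatggctggtggaTGAggaaggtaa
Selenos: ccatcatctggcggcTGAaactaa
Selenoi: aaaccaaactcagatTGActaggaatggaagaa

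A cysteine codon stands 3 codons before the UGA in Selenow, Selenoh, Selenot, Selenom and Selenoo, 2 codons before it in Selenof and directly before it in Selenon. Such a cysteine beside selenocysteine is the arrangement of the redox centre in thioredoxin-like proteins. Selenok, Selenos and Selenoi have no cysteine codon among the 4 codons before the UGA, the stretch searched. In Selenow the codon comes early, as codon 13 of 88 counted from the start codon (chr7:15920464-15920466, minus strand, exon 2 of 6). In Selenos it is codon 189 of 190, with 1 codon between it and the stop (chr7:66088844-66088846, plus strand, exon 6 of 6). In Selenok and Selenoo it is likewise near the end, as codon 92 of 94 and codon 665 of 667. Measured to the last exon junction, the UGA lay more than 50 bases upstream in 6 genes, Selenof, Selenoh, Selenom, Selenon, Selenot and Selenow, with distances from 78 bases in Selenof to 470 bases in Selenot. A stop codon in that position is the usual textbook condition for nonsense-mediated decay. In Selenok the distance was 5 bases, and in Selenoi, Selenoo and Selenos the codon lay in the last exon.

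**Figure D1:**
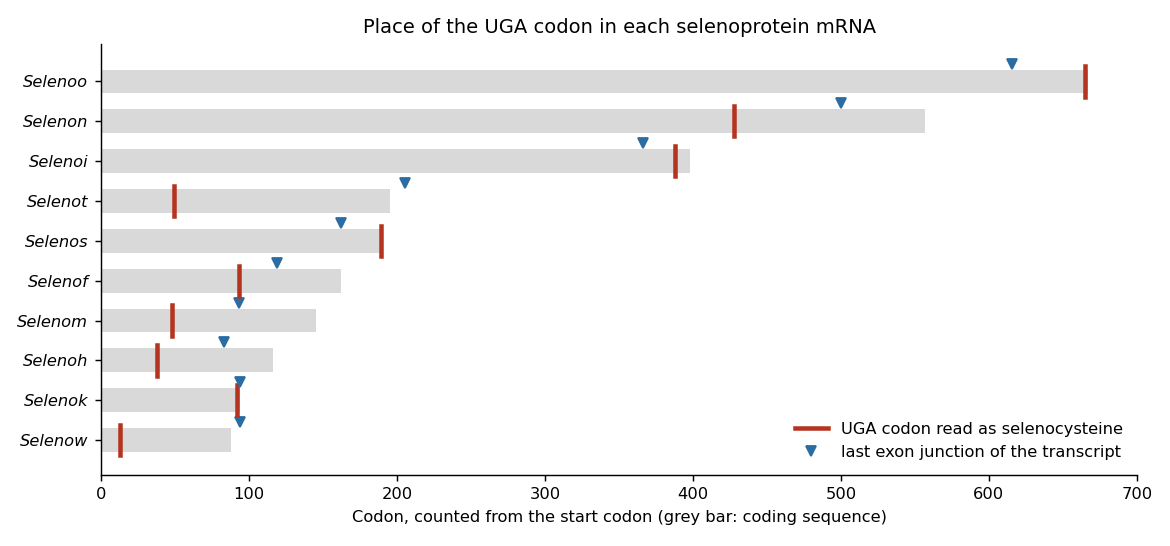
Place of the UGA codon in the 10 messenger RNAs. Grey bars show the length of each coding sequence in codons, red ticks the UGA read as selenocysteine and blue triangles the last exon junction of the transcript, which may lie beyond the coding sequence; in Selenow the tick is at codon 13 of 88, and in Selenos at codon 189 of 190.

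Library totals lay between 55395418 and 67215208 deposited counts. Genes with a count numbered 20102 to 20920 in the control and H2O2 libraries and 24043 to 24141 in the pretreated ones. That difference enters both comparisons with the pretreated group, and its cause was not tested. Differences were tested with the quasi-likelihood test of edgeR on these counts over all 18092 genes, and a gene was called when its Benjamini-Hochberg adjusted p was under 0.05. Nothing in the labels says that libraries of a group came from separate cultures, so the p-values measure the spread between these libraries, which may be technical. Levels are the authors' FPKM, fragments scaled to transcript length and library size. Each log2 fold change is edgeR's estimate with its standard error (SE). The cell numbers behind each library are not known, and in bulk RNA fewer cells with a transcript cannot be told apart from less of it per cell.

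With hydrogen peroxide alone, Selenow, Selenoh, Selenok, Selenof and Selenom were higher than in control, Selenos, Selenon and Selenoi were lower, and Selenot and Selenoo were not called. Across all genes tested 48.7% were called in this comparison, 24.6% higher and 24.1% lower. In CPM (counts scaled to library size) the groups did not overlap for 8 members and for 55.9% of all genes. The members' median log2 fold change was 0.18, against 0.02 over all genes. Pretreated H2O2 was set against H2O2 next: Selenos, Selenow, Selenoi and Selenok were higher, Selenoo, Selenom, Selenof and Selenoh were lower, and Selenon and Selenot were not called. Here 63.6% of all genes were called, 32.4% higher and 31.3% lower, 8 members and 69.7% of all genes did not overlap in CPM, and the members' median was −0.02 beside 0.02 over all genes. Against control, pretreated H2O2 had 5 members higher (Selenow, Selenok, Selenoh, Selenos and Selenof) and 4 lower (Selenoo, Selenon, Selenom and Selenot), where 63.1% of all genes were called, 33.7% higher and 29.5% lower, and 8 members and 68.9% of all genes did not overlap in CPM. The median of the members was then 0.10 and that of all genes 0.06. Changes were small: in the 3 comparisons 29.0%, 38.6% and 31.2% of all genes tested had a larger absolute log2 fold change than the member that changed most. All genes tested include some near 0 CPM, where folds can be large, whereas group means of the members ran from 12.3 to 527 CPM. Shares among genes of like level were not computed. The 3 comparisons share libraries, so their calls are not independent of each other.

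**Figure D2:**
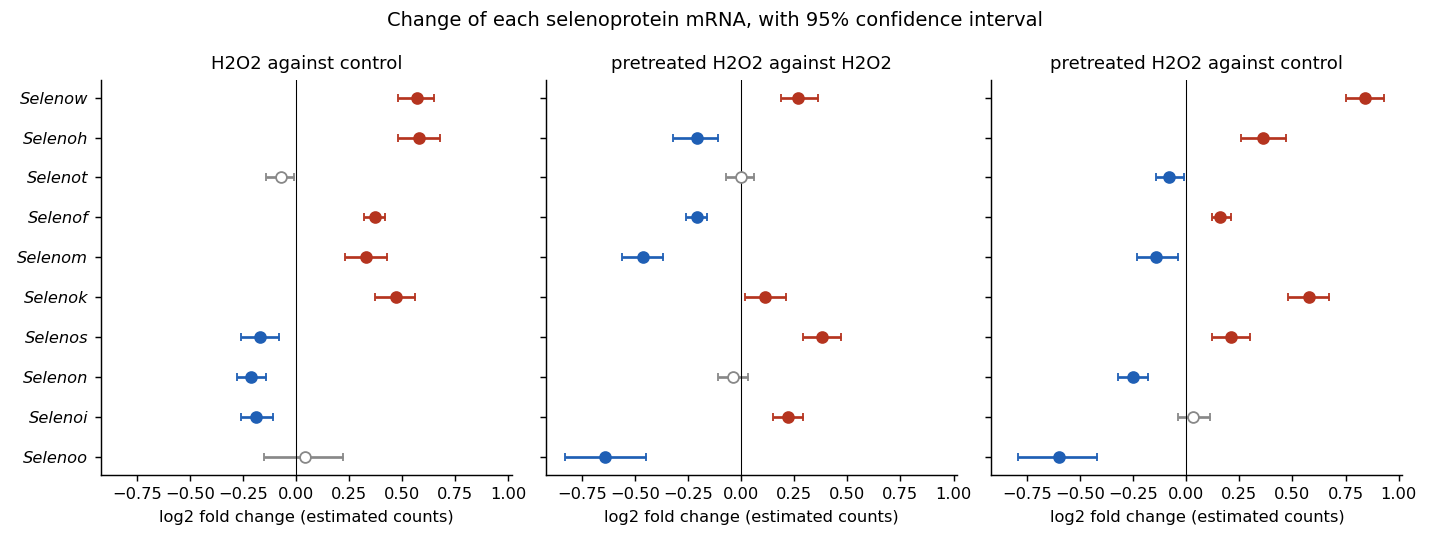
Log2 fold change of each member in the 3 comparisons, from the edgeR fit on estimated counts with 95% confidence intervals, n = 3 libraries per group. Red points were called higher, blue points lower and open grey points were not called; Selenow lies at 0.57, 0.27 and 0.84 from left to right, and Selenoo at 0.04, −0.64 and −0.60.

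Selenow and Selenoh encode small proteins with a thioredoxin-like fold, the first in the cytosol and the second in the nucleus and nucleolus. Selenow (ENSMUSG00000041571, chr7:15917208-15922402, minus strand) had 55.3, 58.8 and 60.0 FPKM in the control libraries, 85.2, 88.2 and 82.3 with H2O2, and 101, 102 and 99.7 after pretreatment. Its 3 groups did not overlap, with control lowest, H2O2 between and pretreated H2O2 highest. The log2 fold change was 0.57 (SE 0.040, edgeR adjusted p = 1.05e-07) from control to H2O2, 0.27 (SE 0.039, edgeR adjusted p = 5.1e-05) from H2O2 to pretreated H2O2 and 0.84 (SE 0.040, edgeR adjusted p = 1.87e-09) from control to pretreated H2O2, a 1.79-fold difference. Selenoh (ENSMUSG00000076437, chr2:84669215-84670770, minus strand) had 66.4, 70.4 and 74.3 FPKM in control, 102, 107 and 104 with H2O2, and 82.4, 90.6 and 91.1 after pretreatment. The pretreated libraries lay between the other groups without touching either. Selenoh rose 1.49-fold with H2O2 (log2 0.58, SE 0.047, edgeR adjusted p = 3.78e-07) and was 1.16-fold lower in pretreated H2O2 than in H2O2 (log2 −0.21, SE 0.046, edgeR adjusted p = 0.00134). Both messenger RNAs are on the short list of 4 known to depend on selenium supply in rodents, with Gpx1, a glutathione peroxidase, and Msrb1, which repairs oxidised methionine. All 4 of that list were higher with H2O2 than in control, at log2 fold changes of 0.58 for Gpx1 and 0.57 for Msrb1. Over all genes tested 24.6% were higher there. With library offsets for transcript length and GC content, described below, Selenow was at 0.19 and Selenoh at 0.27. Whether selenium had a part in these changes was not tested. In pretreated H2O2 against H2O2, Selenow was the member of the list that was higher, whereas Gpx1 (log2 −0.27) and Msrb1 (log2 −0.37) were lower along with Selenoh. Over all genes tested 32.4% were higher and 31.3% lower in that comparison.

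Selenof and Selenom lie in the ER lumen and are related thioredoxin-like proteins; Selenof binds UGGT, the enzyme that checks the folding of glycoproteins. Selenof (ENSMUSG00000037072, chr3:144570304-144597680, plus strand) had 66.5, 65.9 and 63.5 FPKM in control, 85.3, 82.0 and 84.2 with H2O2, and 70.5, 71.8 and 70.8 after pretreatment. These groups did not overlap, with the pretreated libraries nearer to control than to H2O2. The fold changes were 1.29 upward with H2O2 (log2 0.37, SE 0.022, edgeR adjusted p = 2.4e-08) and 1.16 downward from H2O2 to pretreated H2O2 (log2 −0.21, SE 0.022, edgeR adjusted p = 3.76e-06). Selenom (ENSMUSG00000075702, chr11:3514684-3517348, plus strand) had 42.8, 43.0 and 48.3 FPKM in control, 54.4, 56.1 and 56.7 with H2O2, and 38.9, 39.3 and 40.4 after pretreatment. H2O2 libraries were the highest and pretreated libraries the lowest, below every control library. Selenom rose by 0.33 on the log2 scale with H2O2 (SE 0.045, edgeR adjusted p = 4.64e-05) and was lower by 0.46 in pretreated H2O2 than in H2O2 (log2 −0.46, SE 0.045, edgeR adjusted p = 1.6e-06). Against control its log2 fold change of −0.14 had an edgeR adjusted p of 0.02, and the call was lost without control replicate 3 (−0.08, adjusted p = 0.0681), without pretreated replicate 1 (adjusted p = 0.0671) and without pretreated replicate 2 (adjusted p = 0.0565).

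Selenot, Selenos, Selenok and Selenon are proteins of the ER membrane. Selenot, a thioredoxin-like protein with a part in calcium handling and hormone secretion, had the highest FPKM of the 10 in control. Selenot (ENSMUSG00000075700, chr3:58576636-58593133, plus strand) had 98.3, 98.1 and 91.8 FPKM in control, 91.9, 90.2 and 89.6 with H2O2, and 91.3, 85.9 and 88.3 after pretreatment. H2O2 libraries overlapped with both other groups. Its difference between H2O2 and control was −0.07 on the log2 scale (95% confidence interval −0.14 to −0.01, edgeR adjusted p = 0.0692), and between pretreated H2O2 and H2O2 it was 0.00 (95% confidence interval −0.07 to 0.06, edgeR adjusted p = 0.94). The first difference was called in 12 of 21 alternatives, among them DESeq2 size factors (−0.09, edgeR adjusted p = 0.032), total counts (−0.08, edgeR adjusted p = 0.0265) and the fit without control replicate 3 (−0.10, edgeR adjusted p = 0.0104). Pretreated H2O2 against control was called at log2 −0.08 (edgeR adjusted p = 0.0473) although the libraries overlapped in CPM, and leaving out any of 4 single libraries ended the call: control replicates 1 and 2 and pretreated replicates 2 and 3, at adjusted p of 0.112, 0.113, 0.145 and 0.0807.

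Selenos and Selenok take part in ER-associated degradation, which draws misfolded proteins out of the ER for breakdown, and Selenok also works with the palmitoyl transferase Zdhhc6. Selenos (ENSMUSG00000075701, chr7:66079649-66089405, plus strand) had 32.7, 32.4 and 31.8 FPKM in control, 29.4, 28.8 and 27.2 with H2O2, and 37.7, 35.5 and 35.7 after pretreatment. It was lowest in every H2O2 library and highest in every pretreated one. Selenos was lower with H2O2 (log2 −0.17, SE 0.042, edgeR adjusted p = 0.00429), 1.30-fold higher in pretreated H2O2 than in H2O2 (log2 0.38, SE 0.042, edgeR adjusted p = 4.71e-06) and higher than control as well (log2 0.21, SE 0.042, edgeR adjusted p = 0.000723). Selenok (ENSMUSG00000042682, chr14:29968308-29975662, plus strand) had 16.3, 17.5 and 17.6 FPKM in control, 23.6, 23.6 and 23.1 with H2O2, and 24.4, 25.0 and 25.1 after pretreatment. Both treated groups lay above all control libraries, and the step between them was small. The log2 fold change was 0.47 with H2O2 (SE 0.043, edgeR adjusted p = 1.31e-06), 0.58 in pretreated H2O2 against control (SE 0.043, edgeR adjusted p = 1.24e-07) and 0.11 between the treated groups (SE 0.042, edgeR adjusted p = 0.0339). That last difference was called in 10 of 21 alternatives. The call was lost without H2O2 replicate 1, 2 or 3 or pretreated replicate 2 or 3 (adjusted p from 0.0708 to 0.107). It was also lost with total counts (edgeR adjusted p = 0.129), without a filter (edgeR adjusted p = 0.0807) and with limma in all 3 versions (limma adjusted p from 0.0502 to 0.0752).

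Selenon, in which inherited changes cause a muscle disease and which regulates the ER calcium pump, went the other way from Selenok. Selenon (ENSMUSG00000050989, chr4:134537892-134552166, minus strand) had 31.8, 31.3 and 32.2 FPKM in control, 26.9, 27.4 and 27.6 with H2O2, and 24.8, 27.1 and 26.1 after pretreatment. Both treated groups were below all control libraries and overlapped with each other. It fell by 0.21 on the log2 scale with H2O2 (SE 0.032, edgeR adjusted p = 0.000131) and by 0.25 in pretreated H2O2 against control (SE 0.032, edgeR adjusted p = 2e-05). Between the treated groups the difference was −0.04 (95% confidence interval −0.11 to 0.03, edgeR adjusted p = 0.266).

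Selenoi and Selenoo are enzymes of other kinds and had the lowest FPKM of the 10. Selenoi is the ethanolamine phosphotransferase of the Kennedy pathway, which makes the membrane lipid phosphatidylethanolamine. Selenoi (ENSMUSG00000075703, chr5:30232581-30272427, plus strand) had 6.71, 6.31 and 6.57 FPKM in control, 5.74, 5.66 and 5.68 with H2O2, and 6.31, 6.43 and 6.75 after pretreatment. H2O2 libraries were the lowest, and the other groups overlapped. It was lower with H2O2 (log2 −0.19, SE 0.033, edgeR adjusted p = 0.000438) and higher in pretreated H2O2 than in H2O2 (log2 0.22, SE 0.033, edgeR adjusted p = 7.91e-05). Against control the pretreated difference was 0.03 (95% confidence interval −0.04 to 0.11, edgeR adjusted p = 0.386). Selenoo is a mitochondrial protein with a kinase-like fold that transfers AMP to other proteins. Selenoo (ENSMUSG00000035757, chr15:89089084-89100340, plus strand) had 4.63, 4.87 and 4.50 FPKM in control, 4.41, 4.88 and 4.96 with H2O2, and 2.68, 3.13 and 3.14 after pretreatment. Control and H2O2 overlapped, and every pretreated library was below them. The difference with H2O2 was 0.04 (95% confidence interval −0.15 to 0.22, edgeR adjusted p = 0.76). Pretreated H2O2 was 1.56-fold lower than H2O2 (log2 −0.64, SE 0.085, edgeR adjusted p = 2.81e-05) and 1.52-fold lower than control (log2 −0.60, SE 0.085, edgeR adjusted p = 4.89e-05), the largest falls among the members. On the opposite strand Tubgcp6, a gamma-tubulin complex gene, overlaps Selenoo over 1984 bases, and whether the deposited counts used the strand is not stated. Tubgcp6 itself was lower with H2O2 (log2 −0.44, edgeR adjusted p = 1.04e-05) and in pretreated H2O2 against control (log2 −0.55, edgeR adjusted p = 9.54e-07), where Selenoo stood at −0.60, and differed by −0.11 between the treated groups (edgeR adjusted p = 0.0705). The share of its reads in the Selenoo counts was not tested.

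**Figure D3:**
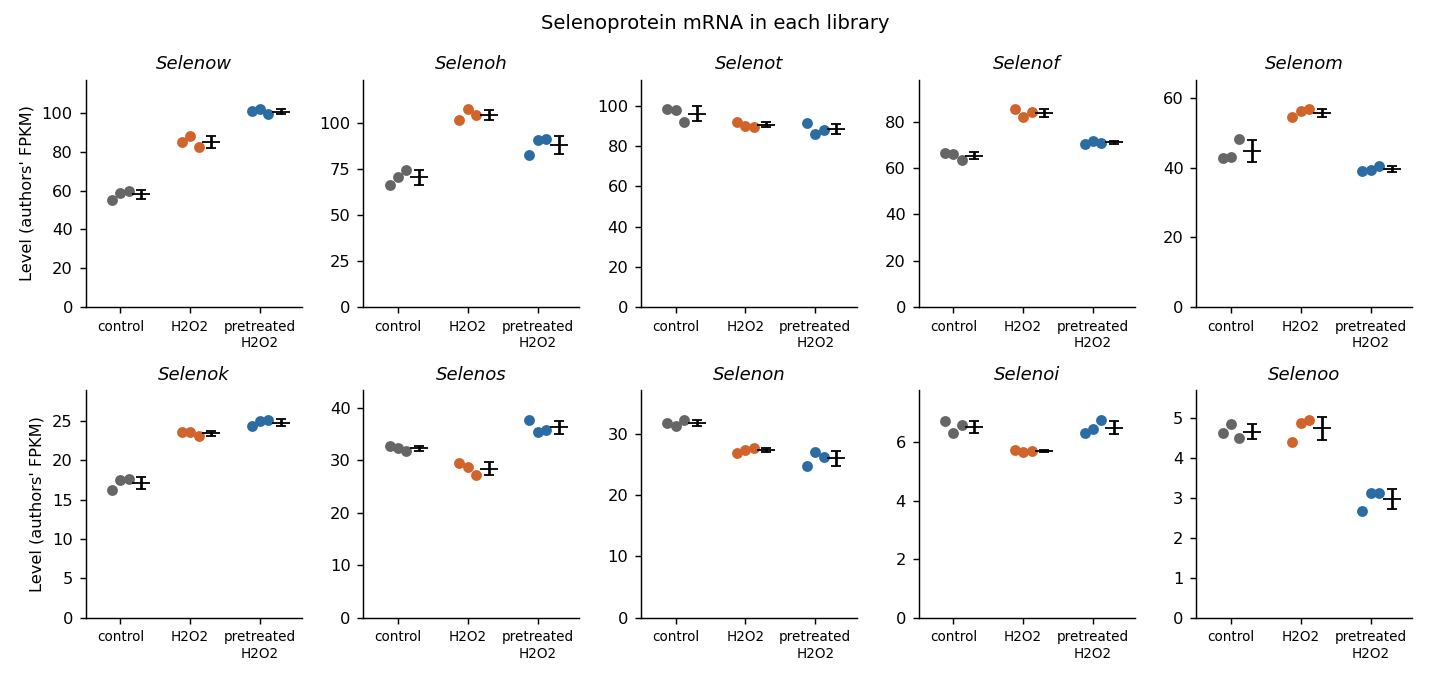
FPKM of each member by library (authors' values), with 3 dots per group and the mean ± SD as a black bar beside them; each panel has its own axis, starting at 0. Selenow climbs from 58.0 to 85.2 and 101 FPKM, Selenos has its lowest mean with H2O2 and its highest after pretreatment, and Selenoo drops to 2.98 FPKM after pretreatment.

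Ordered by mean FPKM, the control series ran Selenot, Selenoh, Selenof, Selenow, Selenom, Selenos, Selenon, Selenok, Selenoi and Selenoo, from 96.1 down to 4.66 FPKM, a 20.6-fold span. Neighbours whose libraries overlapped were Selenoh with Selenof and Selenos with Selenon. With H2O2 the order began Selenoh, Selenot, Selenow and Selenof, the last 2 overlapping, and Selenos again overlapped with Selenon. After pretreatment Selenow came first at 101 ± 1.12 FPKM (SD, n = 3), followed by Selenot and Selenoh, which overlapped, and Selenof, and the span widened to 33.8-fold. Selenom, Selenos, Selenon, Selenok, Selenoi and Selenoo held ranks 5 to 10 by mean FPKM in all 3 groups, with Selenon and Selenok overlapping after pretreatment. Summed over the 10 genes, FPKM was 427 ± 4.78 in control, 509 ± 4.44 with H2O2 and 485 ± 4.08 after pretreatment (SD, n = 3). Members varied between libraries of a group about as other genes did or less, with median coefficients of variation of 3.91%, 2.07% and 3.19% beside 4.10%, 4.06% and 4.26% over genes with at least 1 FPKM. Ranks of levels depend on the transcript length used. The length implied by the ratio of counts to FPKM was 4.17 times that of the selenocysteine-coding transcript for Selenof, 2.27 times for Selenom and 2.10 times for Selenoi, against 1.08 to 1.71 times for the other members. Per kilobase of the selenocysteine-coding transcript Selenof was the highest of the 10 in every group, at 269, 348 and 301 CPM per kilobase.

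Transcript length also went with the direction of change. Over the 10 members, Spearman's rho between the longest annotated transcript and the H2O2 log2 fold change was −0.73, and over 18060 genes tested it was −0.43, a description across genes that share the same libraries. In all genes the median log2 fold change with H2O2 was 0.37 for transcripts under 1000 bases, 0.29 from 1000 to 2000, 0.06 from 2000 to 4000 and −0.34 over 4000. Selenow (736 bases) and Selenoh (783 bases) are the shortest members and Selenoi, with 6803 bases, the longest. With library offsets for length and GC content in the fit, rho was −0.05 over the members and −0.04 over all genes. A value near 0 over all genes was set in advance, because that fit takes its offsets from length and GC in these same counts. Any change with treatment that goes with length is removed along with them. In that fit 5 members were called higher with H2O2, but not the same ones: Selenoh (0.27), Selenok (0.30), Selenof (0.31) and Selenow (0.19) stayed called, Selenom was not called (0.07, edgeR adjusted p = 0.194) and Selenoi turned upward (0.22, edgeR adjusted p = 0.000296). Selenos and Selenon were lower with the offsets as well, at −0.39 and −0.10. In pretreated H2O2 against control, the offsets took Selenoh to 0.01 (edgeR adjusted p = 0.885) and turned Selenos to −0.11 (edgeR adjusted p = 0.0491). Selenoi was newly called higher (0.29, edgeR adjusted p = 9.09e-06) and Selenot lost its call (−0.03, edgeR adjusted p = 0.18). Selenow (0.51), Selenok (0.34), Selenof (0.08), Selenom (−0.37), Selenon (−0.29) and Selenoo (−0.77) kept their calls and directions. Between the treated groups Selenow (0.32), Selenos (0.28), Selenof (−0.24), Selenoh (−0.26), Selenom (−0.44) and Selenoo (−0.72) kept theirs, Selenok (0.03) and Selenoi (0.08) lost theirs, and Selenon (−0.20) and Selenot (−0.06) were newly called lower.

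**Figure D4:**
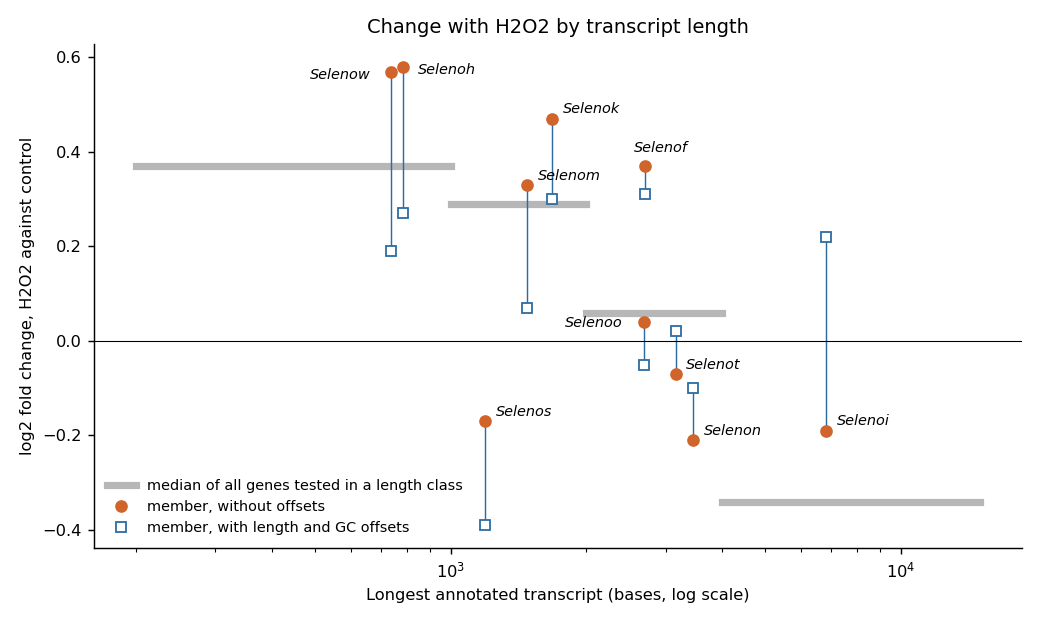
Log2 fold change of H2O2 against control (vertical axis) by longest annotated transcript (horizontal log axis, bases). Orange dots are the members without offsets, open blue squares the same genes with length and GC offsets, and grey bars the medians of all genes in 4 length classes, of which the outer 2 are open-ended; Selenoi moves from −0.19 to 0.22 and Selenow from 0.57 to 0.19.

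The promoters of the members were set beside those of all genes. The table of RefSeq promoters (GRCm38.p6, 250 bases before to 50 after each start) held all 10 genes, and 4 motifs were searched on both strands, of which TGACNNNGC and TGACGTG can share their first letters. The antioxidant response element core TGACNNNGC, the site of the factor NRF2, was found in 12.5% of 27025 promoters and in 1 of the 10, that of Selenok, as TGACTGGGC starting 44 bases before the start site. The C/EBP-ATF element TGATGNAA was in 4.06% of all promoters, the unfolded protein response element TGACGTG in 1.99% and the ER stress response element in 0.13%, and none of the 3 was in a member's window.

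Other selenoprotein genes gave a mixed picture too. Of 9 tested, 5 were higher and 2 lower with H2O2, and 3 were higher and 5 lower in pretreated H2O2 than in H2O2. Beside this and the later list counts stand the shares over all genes tested. With H2O2 24.6% of all genes were higher and 24.1% lower, and between the treated groups 32.4% and 31.3%. The median log2 fold change of all genes was 0.02 in both. Gpx1 and Gpx4, the peroxidase that protects membrane lipids, were higher with H2O2 at log2 0.58 and 0.55 and lower in pretreated H2O2 than in H2O2 at −0.27 and −0.43. Txnrd1, the cytosolic thioredoxin reductase, did the reverse: it had 288 ± 2.82 CPM in control, 240 ± 3.12 with H2O2 and 1186 ± 13.7 after pretreatment (SD, n = 3), a log2 fold change of 2.30 (SE 0.020, edgeR adjusted p = 5.3e-16) between the treated groups. No member came near that size. Selenop, the secreted selenium carrier, was lower in pretreated H2O2 than in H2O2 (log2 −0.42). Dio2, a deiodinase, had no count in any H2O2 library and 0.146 and 0.156 CPM in the other groups, too few for a fold. It is among the 2 lower and the 3 higher calls above, and without it 1 gene of 8 was lower with H2O2 and 2 were higher between the treated groups. Selenov, which the list holds and the filter removed, was listed at 0 in control and at 0.179 FPKM on average after pretreatment.

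The machinery that makes and inserts selenocysteine had 7 of 15 genes higher and 3 lower with H2O2 (median log2 0.15), and 4 higher and 6 lower between the treated groups (median −0.12). With H2O2, Eefsec, the selenocysteine elongation factor, was higher (log2 0.23), as were Sephs2, which makes the selenium donor and is itself a selenoprotein (0.15), and the ribosomal protein gene Rpl30 (0.71). Secisbp2l (−0.96), a relative of the insertion element binding protein, and Ncl (−0.52) were lower. With the offsets Ncl (−0.01) and Sephs2 (−0.05) were not called. Between the treated groups Eefsec and Sephs2 were lower, both at log2 −0.64, and Ncl (0.82), Sars (0.67), which charges the transfer RNA with serine, and Sepsecs (0.31), which turns that serine into selenocysteine, were higher. Eefsec (−0.40) and Sephs2 (−0.49) were below control as well, and Sars (1.06) above it. Among 5 genes of selenium uptake and binding, 3 were lower with H2O2, among them the receptors Lrp1 (−2.38) and Lrp8 (−0.50), which binds Selenop; with the offsets Lrp8 was not called (−0.08). Lrp1 was higher in pretreated H2O2 than in H2O2 (1.07) yet below control (−1.32), and Lrp8 was lower than both (−0.29 and −0.78).

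Genes that work beside the ER members were counted by list. Over all genes tested, 24.6% were higher and 24.1% lower with H2O2, and 32.4% and 31.3% between the treated groups, with a median of 0.02 in both. Of 23 genes of ER-associated degradation, the pathway of Selenos and Selenok, 9 were higher and 8 lower with H2O2 (median 0.09), and 11 higher and 6 lower between the treated groups (median 0.20). Rnf5 (0.64) was higher and Edem3 (−0.85), Sel1l (−0.60) and the ubiquitin ligase Syvn1 (−0.39) lower with H2O2. Herpud1 (0.77) was higher and Rnf5 (−0.74) and Syvn1 (−0.30) lower in pretreated H2O2 than in H2O2, and against control Herpud1 (0.85) and Ube2g2 (0.76) were higher and Syvn1 (−0.69) lower. The list of unfolded protein response targets was drawn up without the members, and it shares Herpud1 with the degradation list. Of its 16 genes, 9 were higher and 3 lower with H2O2 (median 0.22). Between the treated groups 9 were higher and 4 lower (median 0.36). Hspa5, the main ER chaperone, was higher with H2O2 at log2 0.24. Atf4 (0.55) and Ddit3 (0.78) were higher and Xbp1 (−1.05) lower with H2O2, and Hspa5 (1.09), Xbp1 (1.10) and Dnajb9 (1.03) were higher in pretreated H2O2 than in H2O2. Against control Hspa5 (1.33), Dnajb9 (1.39) and Ddit3 (1.70) were higher.

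Glycoprotein folding control, the setting of Selenof, had 5 of 11 genes higher and 5 lower with H2O2 (median −0.04) and 4 higher and 3 lower between the treated groups (median 0.03). The UGGT genes Uggt1 (−0.23) and Uggt2 (−0.56) were lower with H2O2, where Selenof was higher, and both were higher in pretreated H2O2 than in H2O2 (0.22 and 0.23), where Selenof was lower. With length and GC offsets Uggt1 reversed in both comparisons (0.40 and −0.11) and Uggt2 was called in neither (−0.19 and 0.11). Of 17 ER calcium genes, 4 were higher and 7 lower with H2O2 (median −0.05), with Itpr3 (−0.76), Itpr1 (−0.66) and Stim2 (−0.62) among the lower ones, and 11 were higher and 3 lower between the treated groups (median 0.27). With the offsets Itpr3 (0.02) and Itpr1 (0.03) were no longer called. These counts hold genes near 0, such as Atp2a3 with no count in control and 0.0640 CPM with H2O2, and without genes under 1 CPM in either group 3 of 14 were higher and 7 lower with H2O2 (median −0.23), and 8 higher and 3 lower between the treated groups (median 0.19). Orai2 (1.13) was higher and Orai1 (−0.95) lower there, and against control the values were 1.08 and −0.85. Zdhhc6, the partner of Selenok, was higher with H2O2 (0.24), lower in pretreated H2O2 than in H2O2 (−0.84) and lower than control (−0.60). The Kennedy pathway, in which Selenoi acts, had 8 of 12 genes higher and 3 lower with H2O2 (median 0.15) and 4 higher and 5 lower between the treated groups (median −0.11). Pcyt2, which supplies the substrate of Selenoi, had 99.1 ± 1.12, 124 ± 3.44 and 41.5 ± 0.370 CPM (SD, n = 3), higher with H2O2 (log2 0.32) and lower in pretreated H2O2 than in either group (−1.57 and −1.26). Cept1, an enzyme with overlapping activity, was higher with H2O2 (0.31) and lower between the treated groups (−0.28). The Selenoi values in these comparisons were −0.19 and 0.22, and 0.22 and 0.08 with length and GC offsets. Etnk1 (−0.61) was lower and Chkb (0.67) higher with H2O2, and between the treated groups Chka (1.14) was higher and Chkb (−0.70) lower, with Chka at 1.24 against control.

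**Figure D5:**
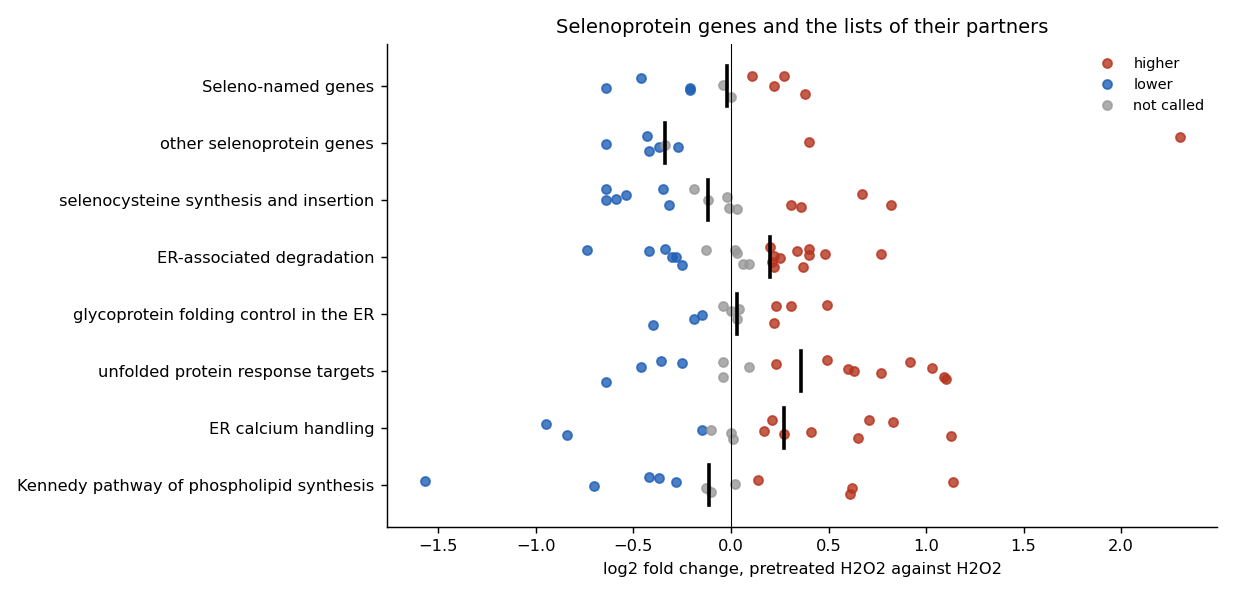
Log2 fold change of pretreated H2O2 against H2O2 for the members and for 7 lists of related genes, 1 dot per gene tested with at least 1 CPM in both groups (red called higher, blue lower, grey not called) and a black bar at the median of all tested genes of the list. The members lie between −0.64 and 0.38, Txnrd1 at 2.30 is the dot farthest right and Pcyt2 at −1.57 the one farthest left.

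The genes most like a member were sought among 9275 genes averaging 10 CPM or more, by the root mean square difference of centred log2 CPM over the 9 libraries, and are given for the 3 members with the widest range of group means. For Selenow they were Atp6v0b (0.0377) and Cdc34 (0.0450), for Selenoo Ttc33 (0.0588) and Vgll4 (0.0669), and for Selenoh Ndufc2 (0.0265) and Mif (0.0321). Atp6v0b stood at 54.6, 79.8 and 93.7 CPM in control, H2O2 and pretreated H2O2, Ttc33 at 16.9, 18.5 and 12.0 CPM, and Ndufc2 at 38.03, 54.8 and 48.1 CPM. Processed copies, which could take up reads, were sought by name alone and found for 2 members. They had at most 26 counts in a library (Selenok-ps1) and 6 (Selenot-ps). Copies under other names were not sought. Gm28635, annotated over the whole of Selenoh on the same strand, had 0 counts.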

How the data were processed

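Polyadenylated RNA of 9 libraries was sequenced as strand-specific paired reads of 150 bp, per the labels' protocols; neither aligner nor counter is named (not given in the sources used here). The submitters' processing notes name only the human build hg38, but the deposited tables hold mouse Ensembl genes on GRCm38 coordinates. The authors deposited whole-number counts for 55401 genes and, for 30411 of them, FPKM computed by the authors. They are treated as estimated counts because 9836 deposited count values equal 4, against 4842 equal to 3 and 3136 equal to 5; raw read counts had been assumed. Which transcript length the deposited FPKM used is not stated.

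Counts were tested with edgeR 4.0.16 (R 4.3.3): TMM scaling, filterByExpr by group, 1 mean per group over all 9 libraries, a quasi-likelihood test and Benjamini-Hochberg adjustment over 18092 genes. CPM uses TMM-scaled library sizes. Totals were 55395418 to 67215208, and standard errors include the spread between libraries. In simulated data of 18092 genes, 61% of 100 genes changed 1.25-fold between H2O2 and control were recovered, and 82% of 100 changed 2-fold. There 13 unchanged genes were called. Far fewer genes were changed in the simulation than the 48.7% called in the data, so these shares need not hold for the data. Alternatives were DESeq2 1.42.0, limma 3.58.1 on log2(FPKM + 1), other scalings and filters, length and GC offsets, a replicate block and leaving out libraries. Members, lists and tests were chosen with earlier results of these data known. The naming rule took all members and, per list and comparison, the 3 largest called changes with at least 10 CPM plus a fixed set of selenium and ER genes; of the non-members it names, those closest to the members' roles are printed. Protein sequences were not used here, and 1 gene of the degradation list is not reported by name.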

Additional observations from a re-analysis of the deposited data

How the results depend on the processing

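Of 630 recomputed values for the members (30 results under 21 alternatives), 566 kept their direction and side of the threshold, 30 lost a call, 15 gained one and 19 reversed; 17 of the 30 results kept both throughout. For the 76 printed results of other genes, 1568 of 1596 values kept both. Length and GC offsets reversed, for H2O2 against control, Selenoi (0.22), Selenoo (−0.05), Selenot (0.02), Sephs2 (−0.05), Uggt1 (0.40), Itpr1 (0.03) and Itpr3 (0.02), for pretreated H2O2 against H2O2 Uggt1 (−0.11), and against control Selenos (−0.11) and Gpx4 (−0.16). Between the treated groups the uncalled values turned positive under DESeq2 size factors (Selenon 0.01, Selenot 0.05), the DESeq2 test (0.01 and 0.05), a filter at 1 CPM (0.02 and 0.06) and counts divided by 4 (0.00 and 0.04), and Selenot lay between −0.02 and 0.02 when a library was left out, turning positive without H2O2 replicate 1 (0.00) or pretreated replicates 2 (0.02) or 3 (0.00). Selenoi against control was −0.01 with total counts and with limma in all 3 versions. The cause was not tested.

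Members lower in pretreated H2O2 against control numbered 2 in place of 4 with DESeq2 size factors, the DESeq2 test, the 1 CPM filter and counts divided by 4, as Selenom and Selenot lost their calls, and between 2 and 4 when a library was left out, with 2 without pretreated replicate 2. Members higher between the treated groups numbered 2 with the offsets in place of 4. Over all genes, 2804 were lower with H2O2 under the offsets in place of 4365. Limma on FPKM + 1 and + 0.1 was run only on genes averaging at least 1 FPKM. The genes tested thus differ as well as the method. Between the treated groups 3250 and 3240 genes were then higher and 5378 and 5371 lower, in place of 5856 and 5655. In pretreated H2O2 against control 3389 and 3382 were higher and 4885 and 4879 lower, in place of 6088 and 5336. The median of the genes tested for the treated groups was −0.12 and −0.14 in place of 0.02. With limma on FPKM + 1 without that minimum it was 0.01. By CPM per kilobase of the longest transcript 6 members in H2O2 and 2 in pretreated H2O2 kept their FPKM rank, and per kilobase of the selenocysteine-coding transcript, chosen after seeing the data, 5, 5 and 4 did in control, H2O2 and pretreated H2O2.

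The correlations of same-numbered libraries' deviations from their group means ran from −0.0539 to 0.13. Those of differently numbered libraries ran from −0.128 to 0.102. With 3 libraries per group these values cannot decide whether replicate numbers pair the samples. With the replicate block, Selenot was called lower with H2O2 (−0.07, edgeR adjusted p = 0.0432), making 4 members lower, and the other member counts were unchanged.

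Selenoo, at 12.3 to 19.2 CPM, had the largest standard error of the members. Counts of list genes above 1 CPM in both groups were added after seeing the data.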
